A study of Homo sapiens with 9 samples.

Results

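The genes described here encode polypeptide N-acetylgalactosaminyltransferases (GALNTs), the enzymes that begin mucin-type O-glycosylation. They are *GALNT1*, *GALNT2*, *GALNT3*, *GALNT4*, *GALNT5*, *GALNT6*, *GALNT7*, *GALNT10*, *GALNT12* and *GALNT14*, 10 of the 20 genes of the family considered and 10 of the 28395 genes in the count table. They were found by their NCBI gene identifiers. *GALNT5* was chosen by its higher counts in 786-M1A, so its comparisons with 786-M1A are given as a description with no test. RNA-seq was done in HK2, an immortalised line of normal renal proximal tubule cells, in 786-O, a line from a primary clear cell renal cell carcinoma (ccRCC), and in 786-M1A, a metastatic line recovered from lung metastases after 786-O cells had been injected in vivo. No line was treated, and all were kept stably in Plasmax, a medium with nutrients at the levels of human serum. Each line gave 3 libraries. Each disease state was represented by a single line, so the tests compare these lines, and the p-values measure only the spread between dishes of the same line.

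A GALNT moves N-acetylgalactosamine (GalNAc) from UDP-GalNAc to a serine or threonine of a protein passing through the Golgi, and the sugar is then extended and often capped with sialic acid. Members differ in the peptides they accept: some act on bare peptide, others prefer a peptide that already carries a GalNAc. In the kidney such glycans coat podocalyxin and other surface proteins, and they modify the linkers of the LDL receptor family that takes up filtered protein in the proximal tubule.

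The libraries held between 30212291 and 45362428 counts, and 3 counts, the floor used here, correspond to between 0.0661 and 0.0993 CPM (counts scaled to the size of the library). Among 13 markers of the proximal tubule, *LRP2*, *SLC22A6* and *SLC22A8* were at 0 in all 9 libraries. In each line 4 of the 13 had at most 3 counts in every library, and the others went above 3 counts in some library. The summed level ran from 299 to 306 CPM in HK2, from 368 to 382 CPM in 786-O and from 326 to 350 CPM in 786-M1A. Of 6 ccRCC markers found, *CA9* had at most 3 counts in any library, and the others had more in some library of each line. Their sum ran from 429 to 449 CPM in HK2, from 1207 to 1251 CPM in 786-O and from 1719 to 1774 CPM in 786-M1A. The sum of 5 epithelial markers ran from 1255 to 1298 CPM in HK2, from 453 to 491 CPM in 786-O and from 723 to 817 CPM in 786-M1A. Of these 5, *CDH1* had at most 3 counts in every 786-M1A library, but more in some library of HK2 and of 786-O. Among 8 markers of fibroblasts, endothelium and blood cells, *PTPRC* and *CD3E* were at 0 throughout. *PECAM1* and *CDH5* had at most 3 counts in every library, as had *COL3A1* in 786-M1A. The sum of the 8 ran from 103 to 117 CPM in HK2, from 294 to 362 CPM in 786-O and from 333 to 335 CPM in 786-M1A. The part of these differences in the results below was not tested.

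Promoter sequences are shown for *GALNT3* and *GALNT12*, the members besides *GALNT5* that differed by at least 2-fold between 786-M1A and 786-O, in opposite directions. Each is the 250 bases before a transcription start in RefSeq (GRCh38.p14), 5′ to 3′ on the strand of the gene, with matches to the GC box core GGGCGG and to CCAAT in capitals. The window of *GALNT3* is chr2:165794248-165794497 on the minus strand, inside the annotated span of the gene, which also has starts further upstream. That of *GALNT12* is chr9:98807420-98807669 on the plus strand.
GALNT3: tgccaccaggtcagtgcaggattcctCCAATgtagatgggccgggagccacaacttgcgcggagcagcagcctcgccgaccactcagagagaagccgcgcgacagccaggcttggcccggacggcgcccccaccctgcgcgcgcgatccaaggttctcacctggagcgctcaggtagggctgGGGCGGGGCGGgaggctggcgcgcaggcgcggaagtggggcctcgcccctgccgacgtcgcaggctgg
GALNT12: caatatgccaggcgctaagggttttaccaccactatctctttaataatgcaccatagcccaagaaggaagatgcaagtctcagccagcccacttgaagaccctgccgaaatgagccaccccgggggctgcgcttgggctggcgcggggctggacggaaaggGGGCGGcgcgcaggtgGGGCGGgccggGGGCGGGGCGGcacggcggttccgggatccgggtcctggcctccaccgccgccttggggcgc

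Both windows were rich in CpG. *GALNT3* had 26 CpG and 71.6% G and C, and *GALNT12* had 21 CpG and 67.2% G and C, against medians of 11 CpG and 58.0% over 35116 RefSeq promoter windows of the same length. GGGCGG was found 2 times before *GALNT3*, the pair sharing a G, and 4 times before *GALNT12*. Searched on both strands, it was present in 42.6% of all windows and in 8 of the 10 windows of the 7 members that had an entry. CCAAT, present in 32.0% of all windows, was found once before *GALNT3* and not before *GALNT12*. The letters ACGTG and GCGTG, forms of the core bound by hypoxia-inducible factors, were absent from both windows. ACGTG occurred in 18.5% of all windows and in none of the 10 of the members, and GCGTG in 32.2% of all windows and in 3 of the 10, those of *GALNT1* and *GALNT10*. TATAAA and the AP-1 motif TGANTCA, in 10.7% and 6.57% of all windows, had no match in the members' windows.

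Per base of exon, the same enzyme led in every line. *GALNT2* held the largest share of the summed CPM per kb of the 10 mRNAs, 31.2% ± 0.363 in HK2, 32.0% ± 0.619 in 786-O and, lower, 24.3% ± 0.538 in 786-M1A (SD, n = 3). *GALNT7*, *GALNT10* and *GALNT14* followed in HK2, with 22.2%, 15.5% and 20.2% of the CPM per kb. *GALNT1* went from 7.54% in HK2 to 16.4% in 786-O, with 15.1% in 786-M1A. In HK2, 786-O and 786-M1A the share of *GALNT3* was 0.0620%, 3.53% and 9.58%, whereas that of *GALNT6* was 2.73%, 0.0624% and 0.0339%. *GALNT12* held 0.514%, 2.35% and 1.15%, and *GALNT5* held 0, 0.0303% and 1.75%. Beneath these shifts, the summed level of the 10 mRNAs was 181 ± 3.48 CPM per kb in HK2, 174 ± 1.50 CPM per kb in 786-O and 172 ± 3.16 CPM per kb in 786-M1A. These values depended on the length used. With the longest transcript in place of all exons the sums were 301 ± 5.98, 282 ± 2.36 and 273 ± 4.69 CPM per kb. *GALNT2* still led, and *GALNT1* moved from place 3 to place 5 in both carcinoma lines. As these are bulk cultures, fewer cells with an mRNA and less of it per cell cannot be told apart.

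**Figure D1:**
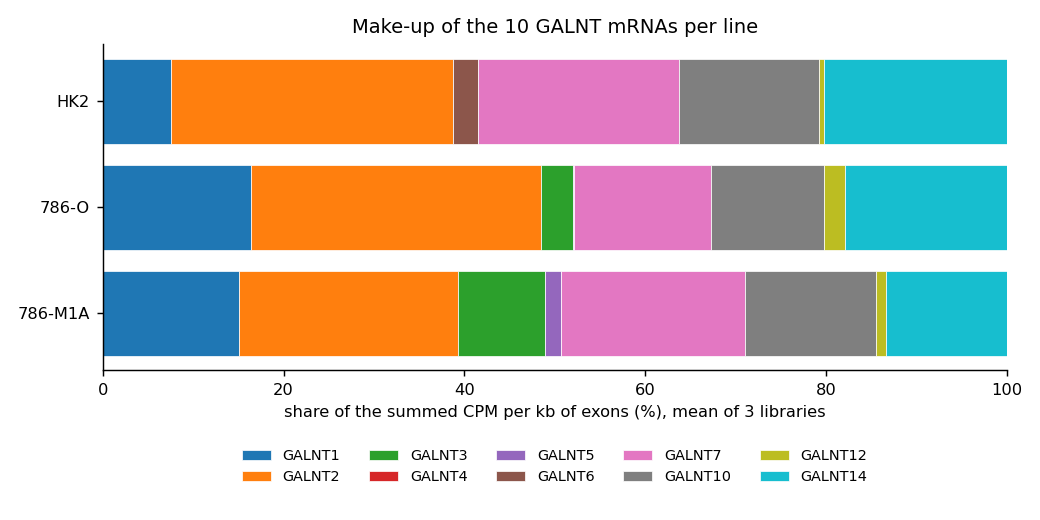
Share of each GALNT mRNA in the summed CPM per kb of exons of the 10 genes (percent, horizontal axis), as the mean of 3 libraries for HK2, 786-O and 786-M1A. *GALNT2* is the widest block in each line, the *GALNT6* block is visible in HK2 with 2.73%, and the *GALNT3* block widens from 0.0620% to 3.53% and 9.58%; *GALNT4* is too small to be seen.

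Between 786-O and HK2, the question is which transferases differ between a ccRCC line and a line of the normal tubule. Of the 10 members, 9 reached the minimum for testing, a mean count of 50 over the 9 libraries, and 8 were differentially expressed (edgeR's quasi-likelihood test, Benjamini-Hochberg adjusted p under 0.05), where 84.2% of all genes tested were. *GALNT1*, *GALNT3*, *GALNT5* and *GALNT12* were higher in 786-O, as were 41.6% of all genes, and *GALNT6*, *GALNT7*, *GALNT10* and *GALNT14* were lower, as were 42.6%. With a limit of 2-fold as well, 5 members were left (22.3% of all genes tested). *GALNT1*, *GALNT3*, *GALNT5* and *GALNT12* were the 4 higher ones (9.18%), and *GALNT6* was the 1 lower (13.1%). The libraries of the lines did not overlap for 8 members, against 85.4% of all genes. The counts of members called, higher, past the limit of 2-fold and not overlapping include *GALNT5*. It had passed the minimum only through 786-M1A, by which it was chosen, so its call is not a result. With only these 2 lines compared, *GALNT5* left the test and 7 members were called.

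The comparison of 786-M1A with HK2 shares the HK2 libraries with the first one. Leaving out *GALNT5*, 8 of 9 members were tested and all 8 differed (84.9% of all genes tested), *GALNT1*, *GALNT3* and *GALNT12* being higher (41.6% of all genes) and *GALNT2*, *GALNT6*, *GALNT7*, *GALNT10* and *GALNT14* lower in 786-M1A (43.3%). The limit of 2-fold left 3 of them (25.4% of all genes), with 2 higher (10.4%) and 1 lower (15.0%). The libraries overlapped for none of the 8, with no overlap for 85.0% of all genes.

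For the metastatic line against its parent, 8 of the same 9 members were tested. All 8 were differentially expressed (56.0% of all genes tested), with *GALNT3*, *GALNT7* and *GALNT10* higher (27.9% of all genes) and *GALNT1*, *GALNT2*, *GALNT6*, *GALNT12* and *GALNT14* lower in 786-M1A (28.0%). The limit of 2-fold left 2 members (6.59% of all genes), *GALNT3* as higher (2.03%) and *GALNT12* as lower (4.55%). The 8 members had libraries that did not overlap, as did 61.6% of all genes. *GALNT5* had passed the minimum of 50 counts only through 786-M1A and *GALNT6* only through HK2, so the counts of members describe these genes and are not evidence that the family differs.

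**Figure D2:**
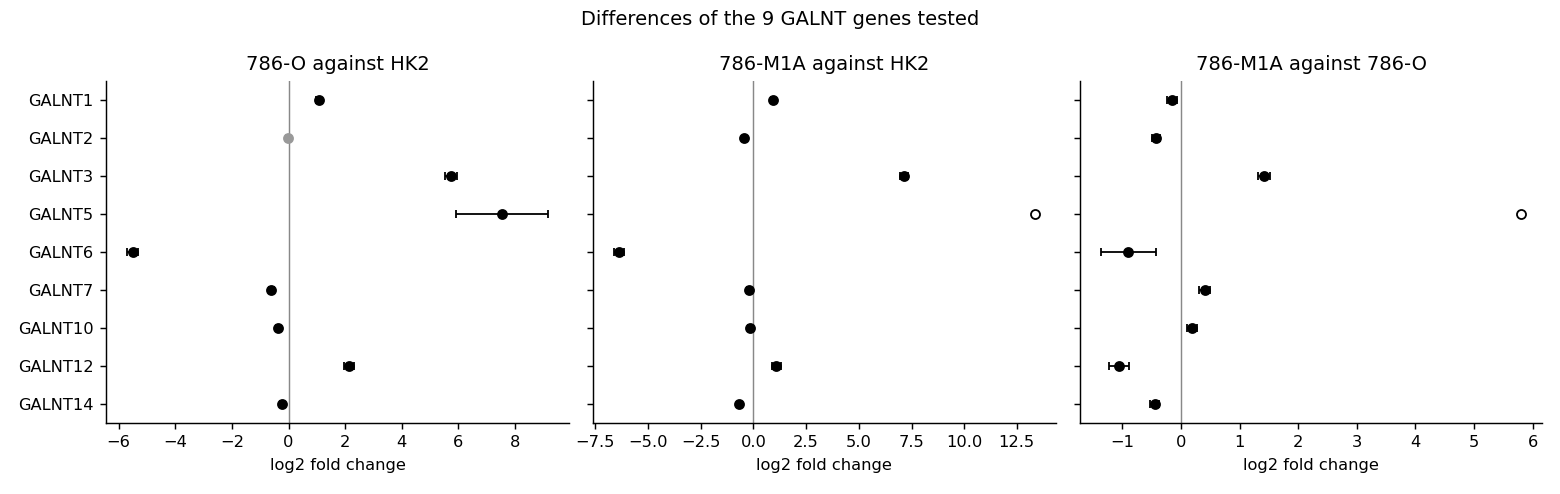
Log2 fold change (horizontal axis, with a separate scale per panel) of the 9 GALNT genes tested, in 786-O against HK2, 786-M1A against HK2 and 786-M1A against 786-O; filled points are edgeR estimates with 95% confidence intervals, black where the adjusted p was under 0.05 and grey otherwise. Open points are *GALNT5* in the contrasts that chose it, with no interval. Its black point in 786-O against HK2 is not read as a call, as only 786-M1A lifted the gene over the minimum. *GALNT3* lies far to the right and *GALNT6* far to the left against HK2, and *GALNT2* in 786-O against HK2 is grey at -0.02.

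*GALNT5* is one of the less studied members (NCBI gene 11227, chromosome 2 of GRCh38, 157257705 to 157318491, plus strand). It had 0 counts in each of the 3 HK2 libraries, 28, 17 and 28 counts in 786-O, and 1103, 1275 and 1337 counts in 786-M1A. On the scale of CPM these were 0.631, 0.451 and 0.661 in 786-O and 30.5, 33.2 and 35.3 in 786-M1A. The mRNA was thus undetected in the tubule line, low but above the floor of 3 counts in each parent library, and plainly present in every metastatic library. The mean went from 0.581 ± 0.113 CPM in 786-O to 33.0 ± 2.42 CPM in 786-M1A (SD, n = 3). The summed counts of 786-M1A, scaled for depth, were 54.4 times those of 786-O (95% exact interval 43.1 to 69.5, for counting error only). This interval takes no account of the choice of the gene by this rise and is not a test. Against HK2, with its floor of 3 counts over the group, the level was at least 1223-fold higher in 786-M1A. In 786-O it was at least 22.5-fold higher than in HK2, and higher in 3 of 3 libraries. This comparison could be tested only because the counts of 786-M1A, by which the gene was chosen, lifted it over the minimum, so no p-value is given for it. No exon of another annotated gene overlaps those of *GALNT5*.

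*GALNT3* protects the phosphate-regulating hormone FGF23 from cleavage, and its loss causes familial tumoral calcinosis (NCBI gene 2591, chromosome 2, 165747588 to 165794692, minus strand). Its counts were 12, 23 and 27 in HK2, 1225, 1106 and 1174 in 786-O, and 2655, 2903 and 2933 in 786-M1A. In CPM the libraries gave 0.386, 0.570 and 0.583, then 27.6, 29.3 and 27.7, and then 73.4, 75.6 and 77.5. The level rose at each step from HK2 to 786-O to 786-M1A, without overlap between lines. It was 53.2-fold higher in 786-O than in HK2 (log2 fold change 5.73, standard error 0.098, adjusted p = 2.03e-22) and 143-fold higher in 786-M1A than in HK2 (7.16, standard error 0.088, adjusted p = 7.17e-25). Between 786-M1A and 786-O the difference was 2.68-fold (log2 fold change 1.42, standard error 0.047, adjusted p = 2.67e-16).

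*GALNT6* is the closest relative of *GALNT3* and is known for glycosylating fibronectin in breast carcinoma (NCBI gene 11226, chromosome 12, 51351252 to 51391673, minus strand). The HK2 libraries had 1196, 1383 and 1670 counts, those of 786-O had 37, 33 and 29, and those of 786-M1A had 17, 17 and 14. This is 38.4, 34.3 and 36.0 CPM in HK2, 0.833, 0.876 and 0.684 CPM in 786-O, and 0.470, 0.443 and 0.370 CPM in 786-M1A. The order of the lines was the reverse of that of *GALNT3*. *GALNT6* was 45.4-fold lower in 786-O than in HK2 (log2 fold change -5.50, standard error 0.096, adjusted p = 2.86e-22) and 84.3-fold lower in 786-M1A than in HK2 (-6.40, standard error 0.11, adjusted p = 1.86e-22). The step between the carcinoma lines rested on few reads, and its log2 fold change was -0.89 (adjusted p = 0.00222, standard error 0.23). *GALNT6* had reached the minimum count for testing only through HK2, so these p-values are not free of that choice. Of its exons, 5.3% overlap *SLC4A8* on the opposite strand, which had between 1.85 and 7.46 CPM in the 9 libraries.

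The pair changed places between the tubule line and the carcinoma lines. Of the summed CPM per kb of *GALNT3* and *GALNT6*, *GALNT3* took 1.58% to 2.59% in HK2, 98.1% to 98.5% in 786-O and 99.6% to 99.7% in 786-M1A. The related pair of *GALNT2* and *GALNT14* did not: the share of *GALNT2* in their CPM per kb ran from 60.0% to 61.2%, from 64.0% to 64.3% and from 64.0% to 64.9%.

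**Figure D3:**
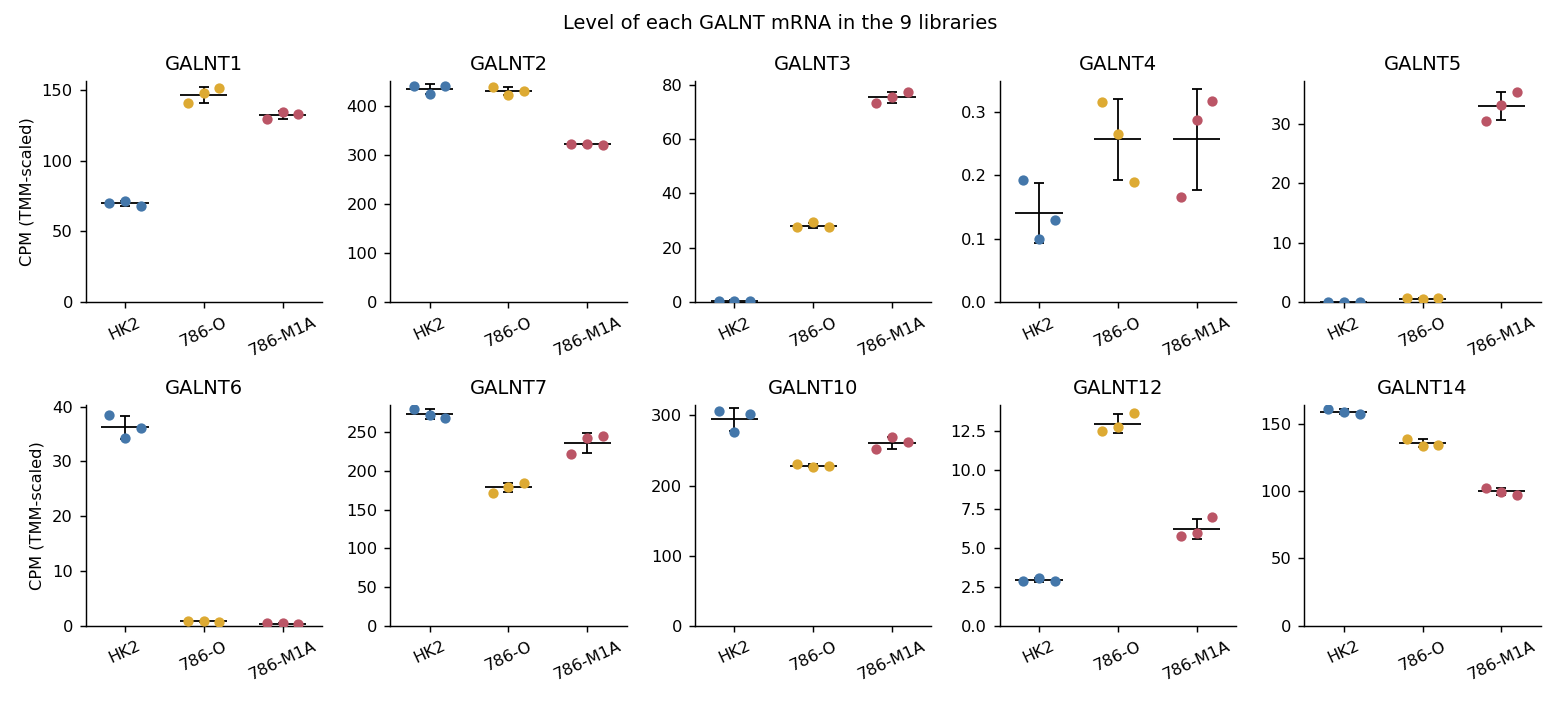
Level of each of the 10 GALNT mRNAs (CPM scaled by TMM, linear vertical axes from 0, a separate scale per gene) in the 3 libraries of HK2 (blue), 786-O (yellow) and 786-M1A (red); points are libraries, horizontal lines the means and error bars 1 SD. *GALNT5* stands at 0 in HK2 and near 0 in 786-O, *GALNT3* climbs from line to line, *GALNT6* is high in HK2 alone, and the points of *GALNT4* overlap between lines at levels between 0.0992 and 0.317 CPM.

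*GALNT1* and *GALNT2* are broadly expressed and act on bare peptide. For *GALNT1* (NCBI gene 2589, chromosome 18, 35580922 to 35711834, plus strand), the libraries had 70.2, 71.5 and 67.9 CPM in HK2, 141, 148 and 151 CPM in 786-O, and 130, 134 and 133 CPM in 786-M1A. Both carcinoma lines lay above HK2, by 2.10-fold for 786-O (log2 fold change 1.07, adjusted p = 2.39e-16) and 1.89-fold for 786-M1A (0.92, adjusted p = 3.14e-15). Between the carcinoma lines the difference was small, a log2 fold change of -0.15 in 786-M1A (adjusted p = 0.00296).

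*GALNT2* (NCBI gene 2590, chromosome 1, 230057789 to 230282122, plus strand) also acts on apolipoprotein C-III and other regulators of plasma lipids. It had 440, 423 and 440 CPM in HK2, 439, 421 and 430 CPM in 786-O, and 323, 322 and 319 CPM in 786-M1A. The libraries of HK2 and 786-O overlapped, while those of 786-M1A all lay lower. Between 786-O and HK2 the log2 fold change was -0.02 (95% interval -0.08 to 0.05, adjusted p = 0.666). In 786-M1A the level was 1.35-fold lower than in HK2 (log2 fold change -0.44, adjusted p = 6.10e-11) and 1.34-fold lower than in 786-O (-0.42, adjusted p = 6.66e-10).

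*GALNT14*, the closest relative of *GALNT2*, is known for glycosylating death receptors of the ligand TRAIL (NCBI gene 79623, chromosome 2, 30886782 to 31138440, minus strand). Its level was 161, 159 and 157 CPM in HK2, 139, 133 and 134 CPM in 786-O, and 102, 99.4 and 97.3 CPM in 786-M1A, so the libraries stepped down from line to line. The log2 fold change was -0.23 for 786-O against HK2 (adjusted p = 5.22e-06), -0.67 for 786-M1A against HK2 (adjusted p = 1.75e-13) and -0.44 for 786-M1A against 786-O (adjusted p = 1.55e-09).

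*GALNT7* and *GALNT10* encode follow-up enzymes, which prefer peptides that already carry GalNAc. *GALNT7* (NCBI gene 51809, chromosome 4, 173168811 to 173323967, plus strand) had 280, 272 and 268 CPM in HK2, 172, 180 and 185 CPM in 786-O, and 222, 243 and 245 CPM in 786-M1A. *GALNT10* (NCBI gene 55568, chromosome 5, 154190733 to 154420984, plus strand) had 306, 276 and 302 CPM in HK2, 230, 226 and 228 CPM in 786-O, and 252, 269 and 262 CPM in 786-M1A. For both, 786-O was lowest and 786-M1A lay between it and HK2. The log2 fold change of *GALNT7* was -0.61 for 786-O against HK2 (adjusted p = 7.40e-12), -0.21 for 786-M1A against HK2 (adjusted p = 7.25e-05) and 0.40 for 786-M1A against 786-O (adjusted p = 3.64e-08). For *GALNT10* these were -0.37 (adjusted p = 2.19e-08), -0.18 (adjusted p = 3.64e-04) and 0.19 (adjusted p = 3.38e-04). *GALNT10* shares 1.2% of its exon bases with *MFAP3* on the same strand and 2.8% with *SAP30L-AS1* on the opposite one.

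*GALNT4* and *GALNT12* form another pair that acts well on glycopeptides, and inherited variants of *GALNT12* have been linked with colorectal cancer. *GALNT12* (NCBI gene 79695, chromosome 9, 98807670 to 98850081, plus strand) had 89, 125 and 133 counts in HK2, 556, 480 and 578 counts in 786-O, and 209, 229 and 264 counts in 786-M1A. The levels were 2.86, 3.10 and 2.87 CPM in HK2, 12.5, 12.7 and 13.6 CPM in 786-O, and 5.78, 5.96 and 6.97 CPM in 786-M1A. 786-O was highest and 786-M1A stood between it and HK2, with no overlap. The level was 4.40-fold higher in 786-O than in HK2 (log2 fold change 2.14, standard error 0.090, adjusted p = 1.77e-15) and 2.12-fold higher in 786-M1A than in HK2 (1.08, adjusted p = 1.87e-09). In 786-M1A it was 2.08-fold lower than in 786-O (log2 fold change -1.05, standard error 0.080, adjusted p = 2.88e-10). An antisense transcript overlaps 20.9% of its exons, and others overlap 13.3% of the exons of *GALNT2* and 5.8% of those of *GALNT7*. Reads of either partner could not be told apart if the strand was not used in counting.

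*GALNT4* (NCBI gene 8693, chromosome 12, 89519412 to 89524796, minus strand) was not tested, as it fell below the minimum. It had 6, 4 and 6 counts in HK2, 14, 10 and 8 in 786-O, and 6, 11 and 12 in 786-M1A, and the libraries overlapped between lines. A readthrough gene, *POC1B-GALNT4*, shares 93.4% of its exon bases and was listed at 0 counts in every library, so the level of *GALNT4* is uncertain.

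Of the other 10 family genes, 4 were tested. *GALNT13*, known from neurons, had 1011, 1235 and 1469 counts in HK2 and 0 in all 6 libraries of the carcinoma lines. It was at least 1339-fold lower in 786-O and at least 1254-fold lower in 786-M1A, by the floor of 3 counts over each group. *GALNT13* had reached the minimum for testing only through HK2, so its calls against HK2 are not free of that choice. *GALNT9*, best known from brain, went the other way, with 5, 0 and 0 counts in HK2, 278, 229 and 239 in 786-O, and 616, 521 and 558 in 786-M1A. Set against HK2, 786-O had a log2 fold change of 7.04 (adjusted p = 1.52e-11) and 786-M1A of 8.37 (adjusted p = 9.29e-14), values that rest on the 5 counts of HK2 replicate 1. Without that library the fitted values were 10.9 and 12.3, with HK2 then at 0. Between 786-M1A and 786-O it was 1.33 (adjusted p = 9.09e-08), a call lost with limma on log2 CPM (adjusted p = 0.0574, from 3.54e-57 to 0.0574 over the alternatives that kept all libraries). *GALNT18* was higher in both carcinoma lines than in HK2, by 1.26 on the log2 scale for 786-O (adjusted p = 1.02e-09) and 1.28 for 786-M1A (adjusted p = 8.36e-10), and between the carcinoma lines it was 0.02 (95% interval -0.18 to 0.23). *GALNT11*, which modifies the LDL receptor family, averaged 48.6, 35.3 and 41.6 CPM in HK2, 786-O and 786-M1A. Among the 6 untested genes, *GALNTL6* had 250 counts over the HK2 libraries and 1 over each carcinoma line, and *GALNT17* and *GALNTL5* were at 0 in every library.

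The other steps of the pathway were read from 5 lists of 52 genes, the other family genes included, of which 32 were tested and 5 had no counts at all. Among the 32, *GALNT13*, *B3GNT6* and *MUC12* had reached the minimum only through the line where each was highest. The counts below are not free of that choice. Between 786-O and HK2 the test called 28 of the 32, with 16 higher and 12 lower, where it called 84.2% of all genes. For 786-M1A against HK2 the number was 22 of 32 (84.9% of all genes), with 12 higher and 10 lower, and for 786-M1A against 786-O it was 26 of 32 (56.0%), with 15 higher and 11 lower. Of all genes, 41.6% were higher and 42.6% lower in 786-O than in HK2. For 786-M1A these shares were 41.6% and 43.3% against HK2, and 27.9% and 28.0% against 786-O. The same shares stand beside the splits by direction of the single lists below. The median log2 fold change of the 32 genes was 0.10, 0.04 and 0.10 in this order, beside -0.01, -0.02 and 0.00 over all genes tested.

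UDP-GalNAc is made through the hexosamine pathway. All 6 genes listed for this supply were tested, and none differed by 2-fold or more. Differences were called for 3 of the 6 in 786-O against HK2 (2 higher, 1 lower, beside 84.2% of all genes), for 3 in 786-M1A against HK2 (2 higher, 1 lower, beside 84.9%) and for 5 in 786-M1A against 786-O (3 higher, 2 lower, beside 56.0%).

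Of 7 enzymes that build on the GalNAc, 5 were tested, and 4, 4 and 5 were called in the 3 comparisons, beside 84.2%, 84.9% and 56.0% of all genes. *GCNT1*, which makes the branched core 2, had 28.4 ± 1.11, 106 ± 1.65 and 121 ± 4.66 CPM in HK2, 786-O and 786-M1A (SD, n = 3). Both carcinoma lines were thus high, with log2 fold changes against HK2 of 1.90 (adjusted p = 5.53e-20) and 2.09 (adjusted p = 8.82e-21). *GCNT3*, a mucin-type core 2 enzyme, had 17.8 ± 1.29, 16.3 ± 0.912 and 5.78 ± 0.311 CPM, and was lower in 786-M1A than in 786-O (log2 fold change -1.50, adjusted p = 5.16e-13) or in HK2 (-1.63, adjusted p = 1.28e-14). Between 786-O and HK2 its difference of -0.13 missed the threshold (adjusted p = 0.0785) but passed it under upper-quartile scaling (adjusted p = 0.0251) and without HK2 replicate 3 or 786-O replicate 3 (adjusted p = 0.0319 and 0.0391). *B3GNT6*, the core 3 synthase, had 0.562 ± 0.125, 6.91 ± 0.410 and 0.907 ± 0.0540 CPM. It was high in 786-O, with a log2 fold change of 3.58 against HK2 (adjusted p = 3.78e-16), and fell by 2.93 on the log2 scale in 786-M1A against 786-O (adjusted p = 2.76e-14). It had reached the minimum count for testing only through 786-O, so these p-values are not free of that choice.

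Sialyltransferases cap the chains. Of 6, 3 were tested, and all 3 differed between 786-O and HK2 (1 higher, 2 lower), a share near the 84.2% of all genes. Between 786-M1A and 786-O all 3 differed as well and were higher in 786-M1A, where 56.0% of all genes differed and 27.9% were higher. Only 1 differed between 786-M1A and HK2 (84.9%). *ST3GAL1*, which caps core 1, rose from 13.2 ± 1.11 CPM in HK2 to 22.4 ± 1.97 CPM in 786-O (log2 fold change 0.77, adjusted p = 5.93e-09) and 31.7 ± 2.05 CPM in 786-M1A (log2 fold change against 786-O 0.51, adjusted p = 2.19e-06). *ST6GALNAC1*, which makes sialyl-Tn, was at 0 in every library.

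Among 23 proteins known to carry O-glycans, 14 had mRNA levels that could be tested. In 786-O against HK2 all 14 differed, 8 higher and 6 lower, beside 84.2% of all genes. In 786-M1A 10 differed from HK2 (5 higher, 5 lower, beside 84.9%) and 11 from 786-O (5 higher, 6 lower, beside 56.0%). *MUC12*, a membrane mucin, had 0.355 ± 0.128, 1.55 ± 0.117 and 3.76 ± 0.103 CPM in the 3 lines, and its log2 fold change was 2.08 for 786-O against HK2 (adjusted p = 9.80e-09) and 1.27 for 786-M1A against 786-O (adjusted p = 3.80e-08). *MUC12* had reached the minimum only through 786-M1A, so the same limit holds for it. *GYPC*, a glycophorin, was higher than in HK2 by 1.26 (adjusted p = 2.80e-15) and 1.55 (adjusted p = 5.62e-17) on the log2 scale. *VLDLR*, of the LDL receptor family, was lower by log2 fold changes of -1.10 (adjusted p = 3.46e-16) and -1.57 (adjusted p = 8.43e-19). *FN1*, fibronectin, had 6538 ± 658, 1646 ± 105 and 3986 ± 500 CPM in HK2, 786-O and 786-M1A, so it was lowest in 786-O (log2 fold change -1.99 against HK2, adjusted p = 2.23e-06) and higher again in 786-M1A (1.28 against 786-O, adjusted p = 7.30e-05).

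**Figure D4:**
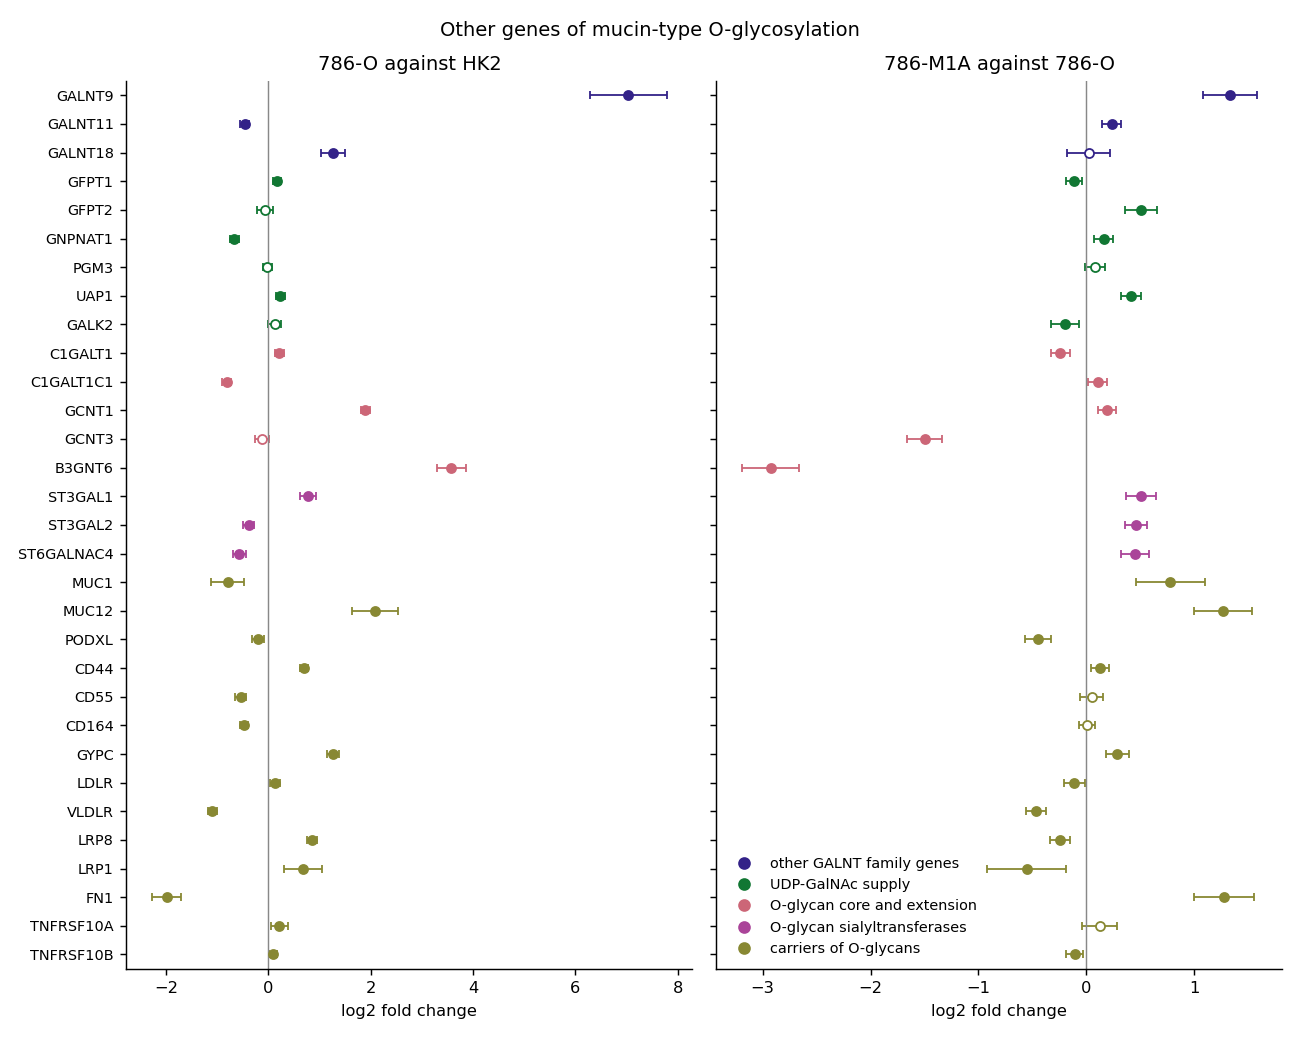
Log2 fold change with 95% confidence interval (edgeR, horizontal axes with separate scales) of the pathway genes tested, in 786-O against HK2 and in 786-M1A against 786-O, coloured by list and filled where the adjusted p was under 0.05; *GALNT13*, at 0 in both carcinoma lines, is not drawn. *GALNT9* lies at 7.04 in 786-O against HK2, *B3GNT6* lies at 3.58 there and at -2.93 in 786-M1A against 786-O, and the genes of UDP-GalNAc supply stay close to 0.

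The 5 genes tested whose pattern over the 9 libraries was most like that of *GALNT5* were taken by the root mean square difference of log2 CPM, each gene centred on its own mean. *IGFBP1*, which binds insulin-like growth factors, was closest (0.84), with 0.348, 8.01 and 110 CPM on average in HK2, 786-O and 786-M1A. *SLITRK2*, a neuronal membrane protein gene, followed at 0.99 with 0, 2.58 and 31.5 CPM. The long non-coding RNA *MANCR* was at 1.12 with 0.335, 9.44 and 79.4 CPM, *ARTN*, a ligand of the GDNF family, at 1.24 with 0.188, 4.45 and 33.8 CPM, and *PHETA2*, an endosomal adaptor gene, at 1.28 with 0.0334, 0.286 and 6.69 CPM. In each the mean CPM went up from HK2 to 786-O to 786-M1A. This order came with their choice by likeness to *GALNT5* and is not a separate result.

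The protein-coding genes within 500 kb of *GALNT5* were looked at after their values had been seen. *ERMN*, which lies 0.14 kb beyond its end, was not tested: it had 0 in HK2, between 0.180 and 0.189 CPM in 786-O and between 0.221 and 0.423 CPM in 786-M1A. *CYTIP*, an adaptor of integrin-bound cytohesin, lies 96.1 kb away. It had 0 in HK2, 4.69 to 6.04 CPM in 786-O and 54.9 to 56.5 CPM in 786-M1A, the same order of the lines as *GALNT5*. The paper names *CYTIP* among the metastatic markers that the metastatic lines kept expressing. A link between *CYTIP* and *GALNT5* was not tested. *ACVR1C*, 208 kb away, reached at most 0.792 CPM and was not tested. *ACVR1*, a receptor of bone morphogenetic proteins 418 kb away, had between 42.0 and 51.2 CPM in all lines, with a log2 fold change of -0.04 in 786-M1A against 786-O (adjusted p = 0.472).

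**Figure D5:**
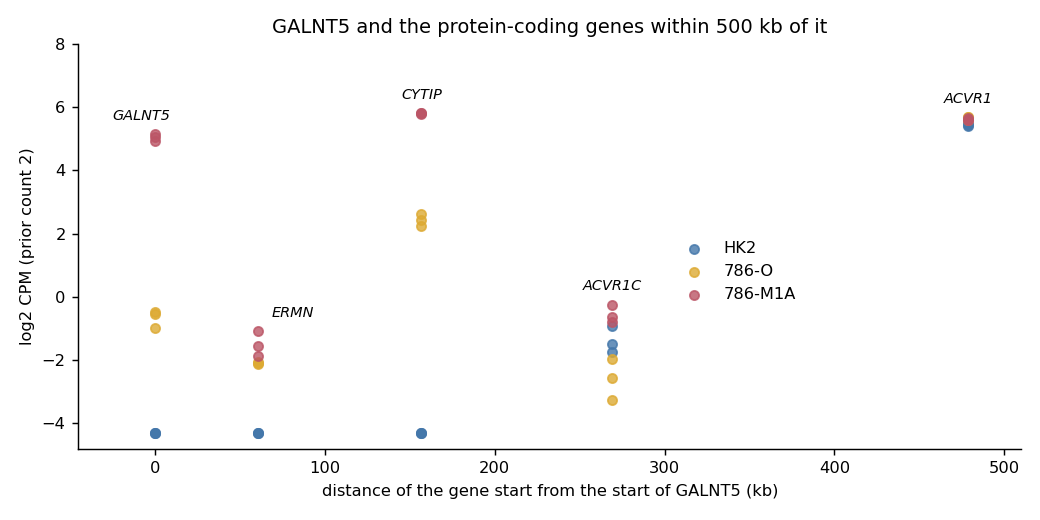
Log2 CPM (prior count 2) of *GALNT5* and of the protein-coding genes within 500 kb, against the distance of each gene start from that of *GALNT5* (kb); each point is a library of HK2 (blue), 786-O (yellow) or 786-M1A (red). The 3 lines lie far apart at *GALNT5* and *CYTIP*, with HK2 at 0 counts, and lie together at *ACVR1*, between 42.0 and 51.2 CPM.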

How the data were processed

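For each library the authors deposited whole-number counts of reads per gene, made with the Rsubread package (featureCounts) on hg38 from TruSeq Stranded mRNA libraries and neither normalized nor filtered. The annotation version and the strand setting of the counting are not given in the sources used here. Of 28395 identifiers, 27745 matched a RefSeq symbol (GRCh38.p14). Groups came from the sample labels.

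Counts were scaled by TMM in edgeR 4.0.16 (R 4.3.3), and the 12695 genes whose mean count reached 50 were tested with edgeR's robust quasi-likelihood test, all 9 libraries in a single fit, with p-values adjusted by Benjamini-Hochberg over these genes (threshold 0.05). The authors used the same minimum, then VSN and limma. Standard errors came from the F statistic. Intervals of log2 fold changes include the spread between libraries, while the interval of the *GALNT5* count ratio and the floors cover counting error only, since reads had no molecular identifiers. The biological coefficient of variation was 3.93%. An exact permutation test of 3 against 3 cannot go below p = 0.1. The models were tested on simulated data.

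Alternatives were RLE and upper-quartile scaling, DESeq2 1.42.0, limma 3.58.1 on log2 CPM (prior count 2), no filter, at least 10 counts in every library, only the 2 lines compared, each library left out, and the replicate number as a block. Lengths were all exon bases of the gene, or its longest transcript. The labels number the libraries 1 to 3 in each line. Same-numbered libraries of 786-M1A and 786-O deviated together (correlations across genes 0.322, 0.167 and 0.165), so these numbers were taken to pair them. Against HK2 the correlations ran from -0.256 to 0.0598 and the numbers were not taken to pair. The main fit, from which the p-values of the comparisons come, did not use the pairing. The block, an alternative, joined same-numbered libraries of all 3 lines.

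All 10 members are named, with pathway genes of at least 2-fold difference past the threshold (at most 3 per list and comparison) and the 5 genes most like *GALNT5*. *GALNT11*, *GALNTL6*, *GALNT17*, *GALNTL5*, *ST6GALNAC1* and the neighbours of *GALNT5* were added after their values were seen. The members and lists were chosen with earlier results of these data known. A result within the pathway lists is not reported here, and its gene is in none of their counts.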

Additional observations from a re-analysis of the deposited data

How the results depend on the processing

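No call of a member changed under these alternatives where it could be tested. Between 7 and 8 members were called in 786-O against HK2 and in 786-M1A against 786-O, and 8 in 786-M1A against HK2, with 8 in each whichever library was left out. The 7 arose where a gene fell below the minimum and left the test: *GALNT5* for 786-O against HK2, with at least 10 counts asked of every library or only the 2 lines compared, and *GALNT6* for 786-M1A against 786-O with only the 2 lines compared. Pathway genes called ranged from 25 to 41, from 20 to 32 and from 24 to 27 (786-O against HK2, 786-M1A against HK2, 786-M1A against 786-O), and from 26 to 28, from 22 to 25 and from 22 to 24 without single libraries. The number of them tested moved with the filter, so a count can exceed the 32 of the main fit. Without a filter 13550, 13738 and 8080 of 21241 genes were called, against 10693, 10784 and 7103 of 12695. With the replicate number as a block, which joins same-numbered libraries of all 3 lines, 8, 8 and 8 members were called. Of all genes, 10688, 10797 and 7157 were called, against 10693, 10784 and 7103. Among the members and the pathway genes of at least 2-fold difference, the sign changed only for differences that were not called. The log2 fold change of *GALNT2* in 786-O against HK2 was 0.0061 without a filter and ran from -0.0420 to 0.0033 (without 786-O replicate 2) with single libraries left out. That of *GALNT18* in 786-M1A against 786-O ran from -0.0922 (without 786-M1A replicate 2) to 0.0878 with single libraries left out, and was also below 0 without 786-O replicate 3. The fitted log2 fold change of *GALNT5* in 786-M1A against HK2, which has no test, was 13.35 with edgeR and 9.34 with limma on log2 CPM, since HK2 is at 0. The depth limits *GALNT4*, *GALNT5* in 786-O, *GALNT6* in the carcinoma lines and *GALNT3* in HK2, where single libraries had from 4 to 37 counts. The folds of *GALNT3* against HK2 rest on those low counts.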
